A study of Mus musculus with 5 samples.

Results

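Endothelial cells line blood and lymphatic vessels, and this account follows 35 genes of that lineage and of its growth factors in the fetal mouse colon. The genes were chosen by name, as vascular and lymphatic endothelial genes with the factors that act on them, when earlier results of these data were known. Every probe set that the array annotation gave a single one of these symbols was taken. Of the 35 genes, 34 had such a probe set, 49 probe sets in all, out of 22626 probe sets and 12393 genes on the array. The 1 gene with none was Mmrn2, and 2 further probe sets that named Ramp2 together with a neighbouring gene were not used.

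Colons of mouse embryos at stage E18.5 were compared by 1 Affymetrix array per embryo. The HNF4 null group held 3 embryos (HNF4 null_59, null_60 and null_426) of the genotype HNF4LoxP/LoxP FoxA3Cre, and the control group held 2 embryos (HNF4 CONTROL_406 and CONTROL_421) of the genotype HNF4LoxP/+ FoxA3Cre. All 5 embryos therefore carried the Cre transgene and at least 1 floxed HNF4 allele, and no array of a Cre-negative or wild-type colon was analysed here. The transgene is named for Foxa3, a gene of the gut endoderm, from which epithelium and not endothelium derives, and the labels do not say in which cells it was active. HNF4 proteins, transcription factors of the nuclear receptor family, act in gut epithelium, and the comparison asks, for these genes, whether vessel transcripts differed between colons with 2 floxed alleles and colons with 1.

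Blood vessels grow by signals of the vascular endothelial growth factor (VEGF) family, which reach receptor tyrosine kinases on endothelial cells, and are stabilised by angiopoietins acting on the receptor Tek. Lymphatic vessels arise from veins when the transcription factor Prox1 is switched on, and they depend on Vegfc and its receptor Flt4. In the gut, blood capillaries serve every layer of the wall, and lymphatic vessels take up fluid and absorbed lipid.

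The deposited intensities had array medians from 123.7 to 135.2, and log2 values of pairs of arrays correlated at 0.946 to 0.974 across probe sets, which are not independent replicates. For Gapdh, whose control probe sets at the 3' and 5' ends of the transcript report RNA integrity, the 3'/5' ratio was 1.47 in HNF4 CONTROL_421 and 0.767 to 0.895 in the other arrays. The labels say HNF4 without naming the gene or the part of it that was floxed. Hnf4a, 1 candidate, did not settle them: of its 4 probe sets, 2 had all null arrays below both controls (differences of -0.55 and -0.35 on the log2 scale), 2 overlapped (0.14 and 0.19), and none passed the threshold (limma adjusted p from 0.603 to 0.902). A probe outside a deleted part checks nothing. The number of arrays limits the precision, and nothing in the labels says whether embryos of a group were littermates.

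None of the 34 measured genes of the set rose or fell in HNF4 null colons at the threshold used; the lymphatic gene Lyve1, outside the set, fell and is described with the lymphatic genes. Differences are given as log2(intensity + 16) in null minus control after quantile normalisation, which gives each array the same distribution of values, and the threshold was an adjusted p under 0.05 in limma over all probe sets. Of the 49 probe sets 0 passed, where 0.124% of all probe sets did (28 of 22626, 0.0177% higher and 0.106% lower), and the smallest adjusted p was 0.653. With each array left out in turn, and in the 8 other alternatives run on single probe sets, the count was again 0, and the smallest adjusted p of any endothelial probe set in these fits was 0.120, for Pecam1 without HNF4 CONTROL_406. At an unadjusted p under 0.05, 1 probe set was higher (2.04% against 2.82% of all probe sets) and 1 was lower (2.04% against 4.33%), together 4.08% against 7.15%. By each gene's brightest probe set 1 of 34 genes had such a p (2.94%, against 6.83% of all genes), which was lower, and 0 were higher (against 2.6%). In bulk tissue, fewer cells of a type and less RNA per cell cannot be told apart, so these values describe the colon as a whole. For 32 of the 49 probe sets the mean was no higher than the highest reading of a bacterial control (155). This limits what can be said of them.

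The differences were small in both directions. Over the 49 probe sets the median difference was 0.050, with an interquartile range between -0.11 and 0.23, beside a median of 0.016 and an interquartile range between -0.14 and 0.16 over all probe sets. Of the probe sets 31 lay above 0 (63.3%, against 52.9% of all). By the brightest probe set, 20 of 34 genes lay above 0 (58.8%, against 53.5% of all genes) and the median was 0.030 against 0.021. The 95% interval of the difference lay within 2-fold in both directions for 44 of the 49 probe sets, against 93.4% of all probe sets. The 5 exceptions were Pecam1, Icam2, Plvap, Vegfc and the 1451428_x_at probe set of Egfl7, for which a 2-fold difference lay inside the interval. These folds include the constant added to each intensity before the log, which understates changes of dim probe sets. Where the signal was dim, the 44 intervals therefore do not exclude a 2-fold change in the intensity itself.

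**Figure D1:**
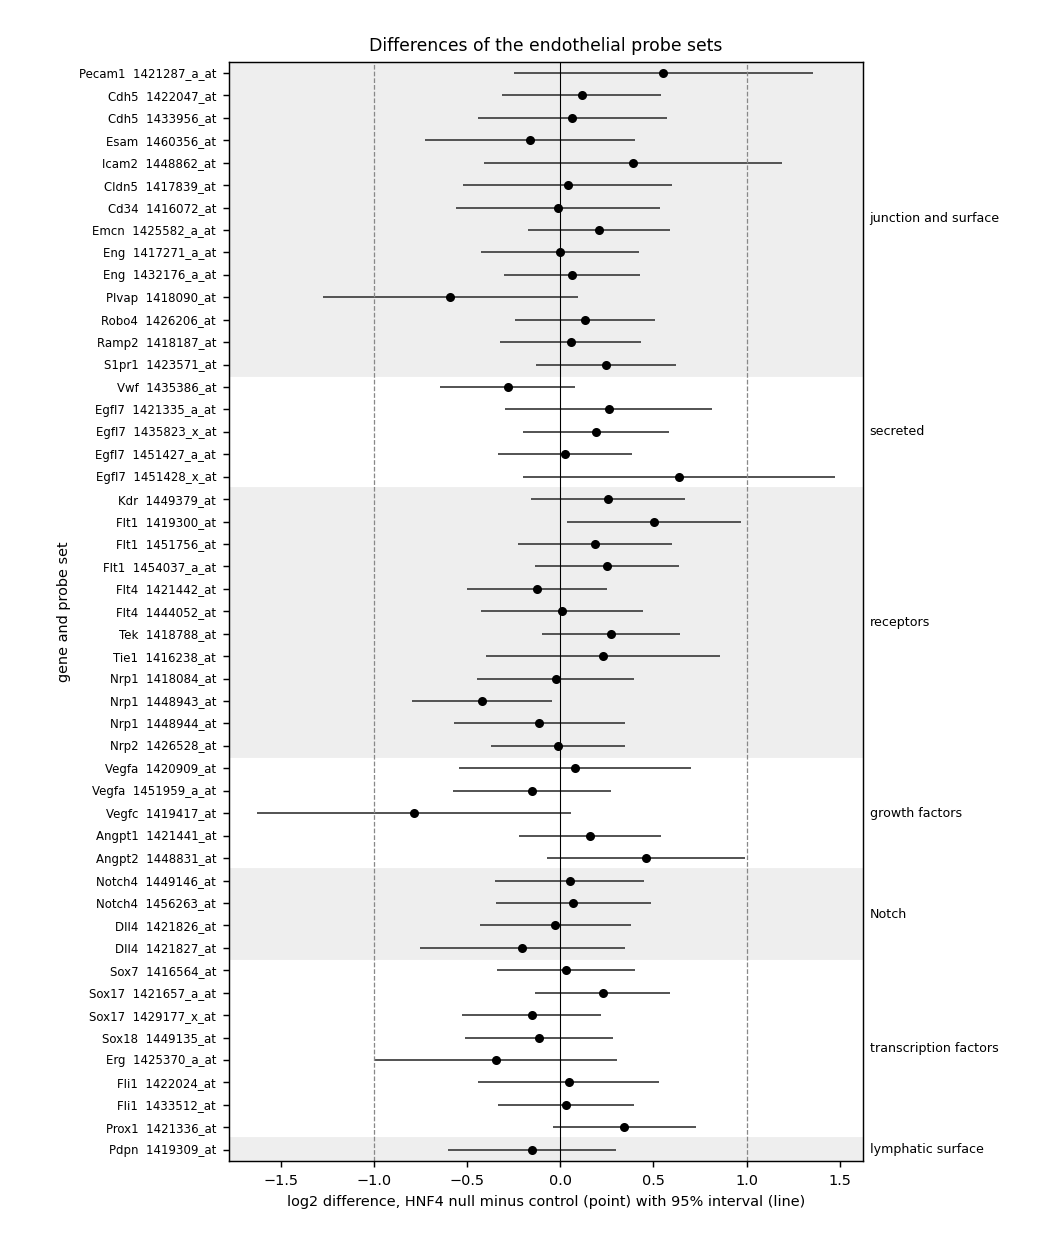
Log2 difference, HNF4 null minus control (points), with its 95% interval (lines), for the 49 endothelial probe sets by role. Dashed lines mark a 2-fold difference on this scale, which understates changes of dim probe sets. Only the intervals of Flt1 1419300_at and Nrp1 1448943_at leave out 0, before any adjustment, and 44 of the 49 intervals stay between the dashed lines.

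**Figure D2:**
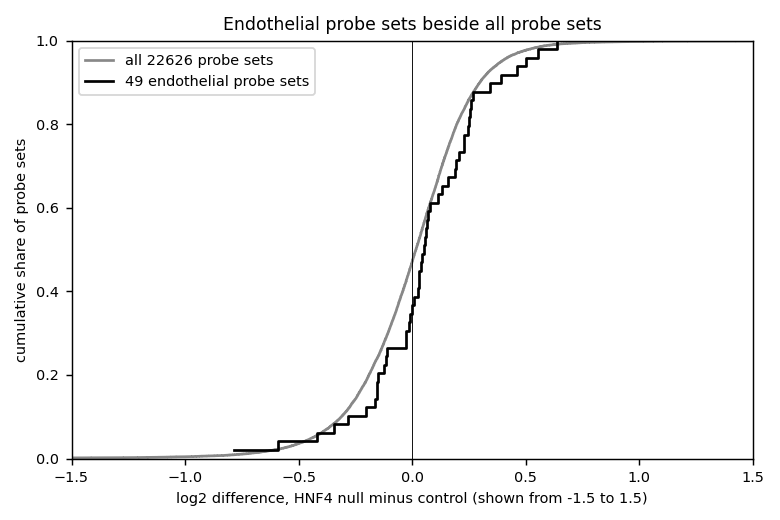
Cumulative share of probe sets by log2 difference (horizontal axis, shown from -1.5 to 1.5), for the 49 endothelial probe sets and for all 22626. The medians are 0.050 and 0.016, and the endothelial values run from -0.79 to 0.64.

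In 7 of the 49 probe sets all null arrays lay above both control arrays (14.3%, against 12% of all probe sets), and in 2 all null arrays lay below (4.08%, against 11.6%). The 7 were probe sets of Flt1 (2 of its 3), Tek, Emcn, S1pr1, Sox17 (1 of its 2) and Prox1, and the 2 were those of Vwf and Nrp1 (1 of its 3). Such counts refer to normalised values. In the deposited intensities a further 4 had null above control, those of Angpt1, Angpt2, Robo4 and Eng 1432176_a_at, which makes 11. In 36 of the 49, the 2 control arrays differed from each other by more than the groups did (73.5%, against 60.1% of all probe sets).

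Single arrays were high or low in different genes. HNF4 null_59 was the highest of the 5 in 13 of the 49 probe sets and the lowest in 3, and HNF4 CONTROL_406 was the highest in 3 and the lowest in 17. Over all probe sets these shares were 15.2% and 14.4% for null_59 and 16.9% and 20.8% for CONTROL_406. HNF4 null_426 was the highest in 10 and the lowest in 10 (27.1% and 23.5% of all). HNF4 null_60 was the highest in 11 and the lowest in 9, and its shares over all probe sets were not computed. HNF4 CONTROL_421, where the Gapdh ratio was high, was the highest in 12 and the lowest in 10 (22.4% and 22.7%). It read lowest, among others, for Pecam1, Icam2, Tie1, Cd34 and Egfl7 1451428_x_at and highest for Plvap, Vegfc, Erg, Cldn5 and Pdpn. The part of RNA integrity in these gaps was not tested.

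**Figure D3:**
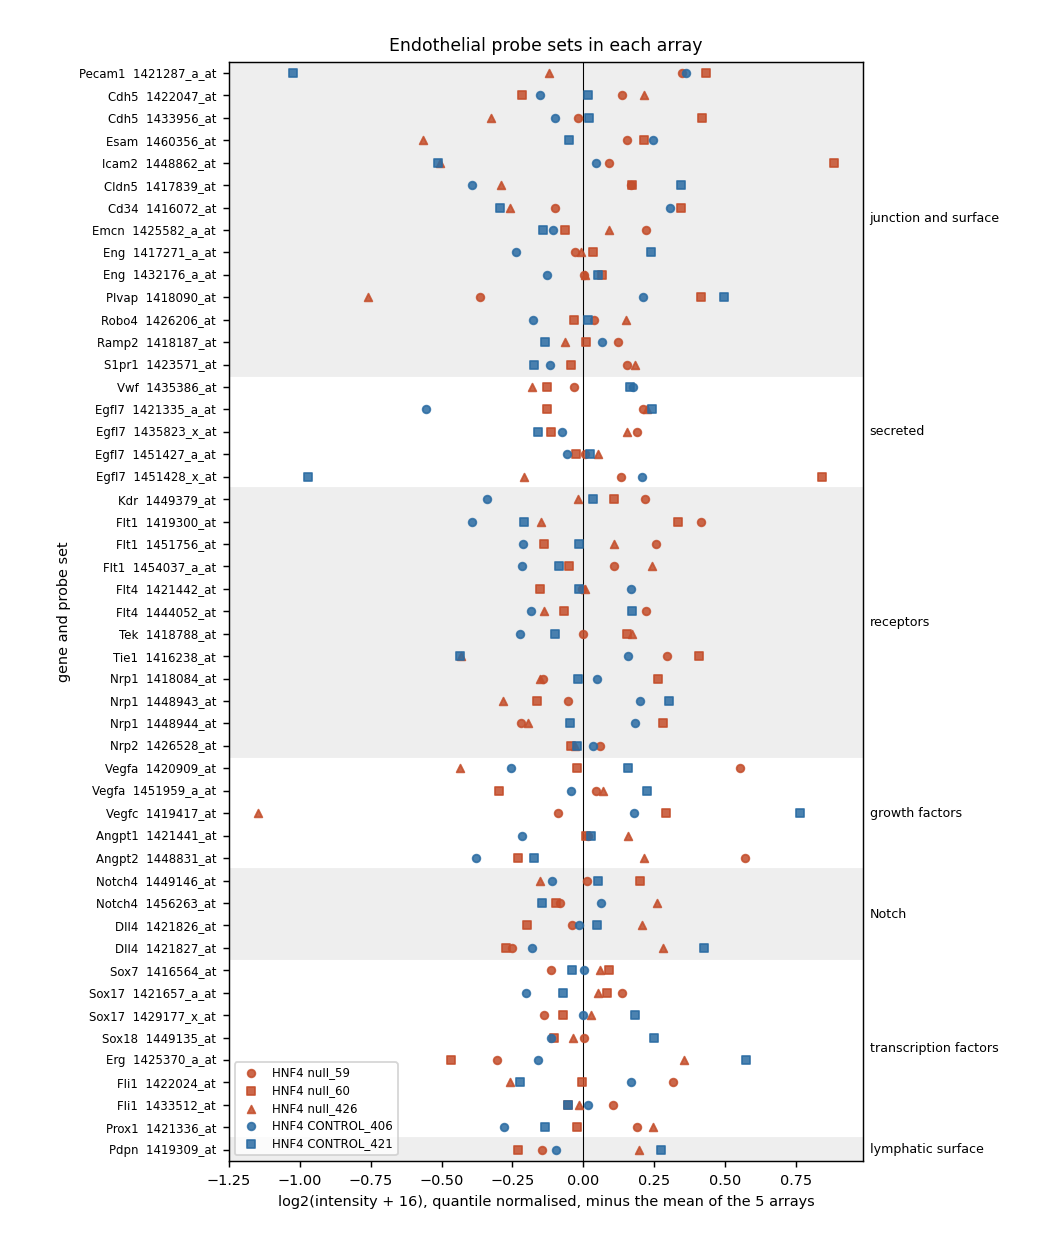
Normalised log2(intensity + 16) of each endothelial probe set in each array, minus the mean of the 5 arrays, by role (orange: the 3 HNF4 null arrays; blue: the 2 control arrays; the shape marks the array). Null and control points are mixed in most rows, and CONTROL_421 sits far to the left for Pecam1 and for Egfl7 1451428_x_at.

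The signals come first. Vegfa, the main growth factor of blood vessels, which epithelium and other cells of the gut release, had deposited intensities of 290.2, 234 and 295 in null_59, null_60 and null_426, the order kept from here on, by its brighter probe set. CONTROL_406 and CONTROL_421, also in this order, read 284 and 332. The groups overlapped, with a difference of -0.15 ± 0.19 (SE; limma adjusted p = 0.872), and the dimmer probe set differed by 0.079. Vegfc, the growth factor of lymphatic vessels, read 31.8, 47.2 and 8.0 in null and 42.2 and 65.7 in control colons. Its difference was the lowest of the 49 probe sets, -0.79 ± 0.37 (SE, 95% interval -1.63 to 0.054, limma adjusted p = 0.716), but null_60 lay above CONTROL_406 and the interval was wide. With an array left out it ran from -1.10 (without null_60) to -0.37 (without null_426). HNF4 null_426 was the lowest of the 5 arrays, and the 16 added before the log is not small beside these intensities, so that the log2 scale understates their ratios.

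Angpt1, an angiopoietin that activates Tek, read 249, 256 and 275 in null and 215 and 249 in control colons and differed by 0.16 ± 0.17 (SE; limma adjusted p = 0.852). Angpt2, which opposes Angpt1 at sprouting vessels, read 107, 54.9 and 86.6 in null and 48.4 and 52.6 in control. Its difference was 0.46 ± 0.23 (SE; limma adjusted p = 0.733), and null_60 lay close to the controls while null_59 and null_426 lay above them. With an array left out the difference was 0.27 to 0.67.

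Among the receptors, Flt1 and Nrp1 held the 2 probe sets with an unadjusted p under 0.05, in opposite directions. Flt1, a VEGF receptor that also traps the ligand, read 120.5, 113 and 82.5 in null and 62.4 and 67.2 in control colons by 1419300_at. The null arrays all lay above both controls, and the difference was 0.50 ± 0.21 (SE, 95% interval 0.039 to 0.96, unadjusted p = 0.0365, limma adjusted p = 0.680). The other probe sets of Flt1 differed by 0.25 (1454037_a_at, where null again lay above control) and 0.19 (1451756_at, where null_60 lay between the controls), and neither passed. Nrp1, a co-receptor that binds VEGF and semaphorins on endothelium and neurons, read 217, 206 and 187 in null and 271 and 281 in control colons by 1448943_at. Here the null arrays lay below both controls, a difference of -0.42 ± 0.16 (SE, 95% interval -0.79 to -0.051, unadjusted p = 0.0299, limma adjusted p = 0.653). Its other 2 probe sets overlapped between the groups and differed by -0.025 and -0.11, so the probe sets of Nrp1 disagreed in size.

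Kdr, the main signalling receptor for Vegfa, read 382, 375 and 319 in null and 266 and 336 in control colons. HNF4 null_426 lay below CONTROL_421, and the difference was 0.26 ± 0.18 (SE; limma adjusted p = 0.792), and 0.069 to 0.44 with an array left out. Tek, the angiopoietin receptor, read 161, 184 and 186 in null and 138 and 144 in control, with every null array above both controls and a difference of 0.27 ± 0.16 (SE; limma adjusted p = 0.771). Tie1, its partner receptor, read 71.1, 78.2 and 40.7 in null and 63.5 and 32.1 in control. The low readings were those of null_426 and CONTROL_421, 1 in each group, and the difference was 0.23 ± 0.28 (SE; limma adjusted p = 0.870). Without CONTROL_421 it was -0.064.

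The sequence in front of these VEGF receptor genes is shown because they hold the 2 probe sets with the smallest p and the main receptor beside them. Each is the 250 bases before the RefSeq start site (GRCm38.p6), on the strand of the gene, 5′ to 3′, with capitals at AGGAAG or CGGAAG on either strand, 2 forms of the site bound by ETS factors such as Erg and Fli1. They stand at chr5:147726012-147726261 (minus strand), chr8:128358823-128359072 (plus strand) and chr5:75978456-75978705 (minus strand).
Flt1: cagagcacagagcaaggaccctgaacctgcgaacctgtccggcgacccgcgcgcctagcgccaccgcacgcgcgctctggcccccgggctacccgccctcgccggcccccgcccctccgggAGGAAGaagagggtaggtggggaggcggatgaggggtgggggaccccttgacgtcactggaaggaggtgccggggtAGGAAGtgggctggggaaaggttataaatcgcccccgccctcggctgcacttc
Nrp1: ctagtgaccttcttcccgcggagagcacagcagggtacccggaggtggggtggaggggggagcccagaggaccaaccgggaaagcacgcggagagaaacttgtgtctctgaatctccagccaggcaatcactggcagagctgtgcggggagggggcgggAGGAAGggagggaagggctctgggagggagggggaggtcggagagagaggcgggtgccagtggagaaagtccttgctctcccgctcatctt
Kdr: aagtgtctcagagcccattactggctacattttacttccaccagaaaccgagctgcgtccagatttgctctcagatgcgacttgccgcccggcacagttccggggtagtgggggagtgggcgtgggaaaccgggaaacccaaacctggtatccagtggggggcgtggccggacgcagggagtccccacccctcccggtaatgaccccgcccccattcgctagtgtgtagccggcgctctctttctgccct
Flt1 held 2 matches, Nrp1 1 and Kdr 0. RefSeq windows were at hand for 20 of the 35 genes (26 windows), and 11 of these 26 held a match (42.3%), close to the 39.2% of all 32851 windows. AACAAT, a form of the SOX factor site, was found in 3 of the 26 (11.5%, against 9.42%), and CAAAGTCCA, 1 form of the HNF4 site, in 0 (0.384% of all windows). TATAAA was found in 3 (11.5%, against 12.4%), and the median GC content was 59.4% against 52.4%. A match is a description of letters and not a binding site.

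Notch signalling selects tip cells in sprouting vessels and sets arterial identity. The receptor gene Notch4 read 92.2, 108 and 86.9 in null and 84.1 and 89.8 in control colons by its brighter probe set and differed by 0.050 and 0.069 by its 2 probe sets. Dll4, its ligand on tip cells, read 70.7, 69.5 and 115 in null and 75.3 and 116 in control by 1421827_at. Here null_426 and CONTROL_421 were the high arrays, so that the groups overlapped, and the 2 probe sets of Dll4 differed by -0.20 and -0.027 (limma adjusted p = 0.869 and 0.979).

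Transcription factors of the endothelium showed no common direction, with a median of 0.030 over 8 probe sets and 5 of them above 0 (52.9% of all probe sets lay above). Sox17, an arterial factor that is also made in endoderm, read 76.8, 73.6 and 77.8 in null and 57.8 and 58.9 in control colons by 1421657_a_at. All null arrays lay above both controls by this probe set (0.23 ± 0.16 SE, limma adjusted p = 0.789), whereas 1429177_x_at differed by -0.15 with overlapping groups. Its relatives Sox7 and Sox18 differed by 0.030 and -0.11. Of the ETS factors, Erg read 88.2, 77.8 and 153 in null and 100.4 and 171 in control, where the high arrays were again null_426 and CONTROL_421, and differed by -0.35 ± 0.29 (SE; limma adjusted p = 0.814). Fli1, which blood cells also express, read from 19.1 to 39.4 over its 2 probe sets and all arrays, and differed by 0.044 and 0.030.

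The junction and surface genes that define endothelium each had a probe set, and none of their 14 probe sets had an unadjusted p under 0.05. Cdh5, the cadherin of endothelial junctions, read 159, 226 and 131 in null and 152 and 159 in control colons by its brighter probe set. Control values fell inside the null range, and its 2 probe sets differed by 0.065 and 0.11. Pecam1, an adhesion molecule of endothelium and platelets, read 121, 131 and 89.0 in null and 123 and 32.4 in control. Its single low value was that of CONTROL_421, and the difference of 0.55 ± 0.35 (SE, 95% interval -0.25 to 1.35, limma adjusted p = 0.780) turned to -0.14 without that array. Icam2, another adhesion molecule, read 47.8, 95.5 and 29.0 in null and 46.4 and 22.8 in control, with null_60 as the high array and a difference of 0.39 ± 0.35 (SE; limma adjusted p = 0.826). With an array left out it ran from 0.026 (without null_60) to 0.72 (without null_426).

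Plvap, which forms the diaphragms of fenestrated capillaries such as those of the gut mucosa, read 126, 232 and 97.6 in null and 198 and 237 in control colons. HNF4 null_59 and null_426 lay below both controls and null_60 lay between them, and the difference was -0.59 ± 0.30 (SE, 95% interval -1.27 to 0.091, limma adjusted p = 0.734). With an array left out it ran from -0.91 (without null_60, limma adjusted p = 0.369) to -0.33 (without null_426, limma adjusted p = 0.922). The sialomucin gene Emcn read 202, 165 and 186 in null and 160.4 and 148 in control, and S1pr1, the receptor for the blood lipid sphingosine 1-phosphate, read 129.8, 112 and 138 in null and 106 and 94.3 in control. In both, every null array lay above both controls, with differences of 0.21 ± 0.17 and 0.24 ± 0.16 (SE; limma adjusted p = 0.811 and 0.783).

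The other surface genes had differences between -0.16 and 0.13. Esam, a junction molecule, differed by -0.16, the endothelial claudin gene Cldn5 by 0.040, Cd34, a sialomucin of vessels and blood progenitors, by -0.012 and the guidance receptor gene Robo4 by 0.13. Ramp2, the partner of the adrenomedullin receptor, read 381, 372 and 329 in null and 385 and 318 in control colons. The groups overlapped, and the interval of its difference of 0.055 ran from -0.32 to 0.43. Eng, a co-receptor for TGF-beta family ligands, differed by -0.0007 and 0.062 by its 2 probe sets.

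Of the secreted products, Vwf, the clotting factor carrier stored in endothelium and platelets, read 32.2, 30.8 and 30.8 in null and 40.5 and 35.2 in control colons. All null arrays lay below both controls, in a narrow range of 30.8 to 40.5, and the difference was -0.28 ± 0.16 (SE; limma adjusted p = 0.759). Egfl7, a matrix protein of endothelium, read 332, 339.9 and 336 in null and 333 and 336 in control by its brightest probe set, 1451427_a_at. This was among the steadiest values, with a difference of 0.026 ± 0.16 (SE, 95% interval -0.33 to 0.38). Its other 3 probe sets differed by 0.19, 0.26 and 0.64, and the last had an SE of 0.37, where CONTROL_421 read 13.5 against 56.9 in CONTROL_406. That value ran from 0.048 without CONTROL_421 to 1.23 without CONTROL_406.

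Lymphatic genes had no common direction. Prox1, which sets lymphatic identity and is also made in some enteric endocrine and neural cells, read 166, 143 and 176 in null and 117 and 124 in control colons. Every null array lay above both controls (0.34 ± 0.17 SE, 95% interval -0.036 to 0.73, limma adjusted p = 0.728). Flt4, the receptor for Vegfc, differed by -0.13 and 0.010 by its 2 probe sets, and Nrp2, its co-receptor, read 306, 295 and 286 in null and 314 and 287 in control. The groups of both overlapped, and the interval for Nrp2 ran from -0.37 to 0.34. Pdpn, a mucin-type surface glycoprotein of lymphatic vessels that mesothelium also makes, read 203, 195 and 260.3 in null and 216 and 275 in control. The high arrays were null_426 and CONTROL_421, and the difference was -0.15 ± 0.20 (SE; limma adjusted p = 0.882).

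Beside these genes stands a list of 18 lymphatic genes outside the set, of which 14 were measured. Of these, 1 fell, 0 rose and 13 did not pass, beside 0.121% of all genes lower by the brightest probe set, and the list's median was 0.052. The list and the set were chosen with earlier results of these data known, so such counts only describe the genes placed in each. The gene that fell was Lyve1, whose product binds hyaluronan on lymphatic endothelium and on some macrophages, at 51.0, 39.0 and 24.5 in null and 153 and 181 in control colons, with no overlap. Its difference was -1.83 ± 0.24 (SE; limma adjusted p = 0.0271), and by its dimmer probe set, at 44.3, 25.1 and 44.0 in null and 79.2 and 73.4 in control, it was -0.89 (limma adjusted p = 0.311). The brighter probe set lost the call without HNF4 null_60 (-1.86, limma adjusted p = 0.146), without CONTROL_421 (-1.67, adjusted p = 0.193) and with a pseudocount of 1 (-2.22, adjusted p = 0.206), while its difference stayed between -2.01 and -1.63 with each array left out. The lymphatic valve factor gene Foxc2 differed by -0.29, and the tetraspanin gene Cd9 and the connexin gene Gja1 by 0.35 and -0.30, none past the threshold. Whether Lyve1 differed from the other lymphatic genes was not tested.

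Since macrophages also make Lyve1, their genes are given beside it. In a list of 20 genes of macrophages and leukocytes, all measured, 6 lay above and 14 below 0 (53.5% of all genes lay above). The median was -0.056, and 0 passed. An unadjusted p under 0.05 was found for 3 lower genes (such genes are 4.24% of all). These were the lysosomal protease gene Ctss (-0.94), the Fc receptor gene Fcgr3 (-0.60) and Cd14 (-0.61), with limma adjusted p from 0.437 to 0.642. Laptm5 differed by 0.41, with all null arrays above both controls (limma adjusted p = 0.703). The other genes of the list above 0 were Aif1 (0.24), Cd52 (0.15), Cd68 (0.11), Fcer1g (0.081) and C1qa (0.048). Below 0, Mrc1, Cx3cr1 and C1qb differed by -0.28, -0.24 and -0.15. The rest lay between -0.093 and -0.021, among them Csf1r (-0.066), Adgre1 (-0.037) and Cd163 (-0.029). The summed intensity of the list was 2576 to 2853 in null and 2935 to 2970 in control colons, with means of 2671 and 2952. Ctss (means of 139 in null and 269 in control) and Cd14 (226 and 367) held most of this gap. The part of macrophages in the fall of Lyve1 was not tested.

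**Figure D4:**
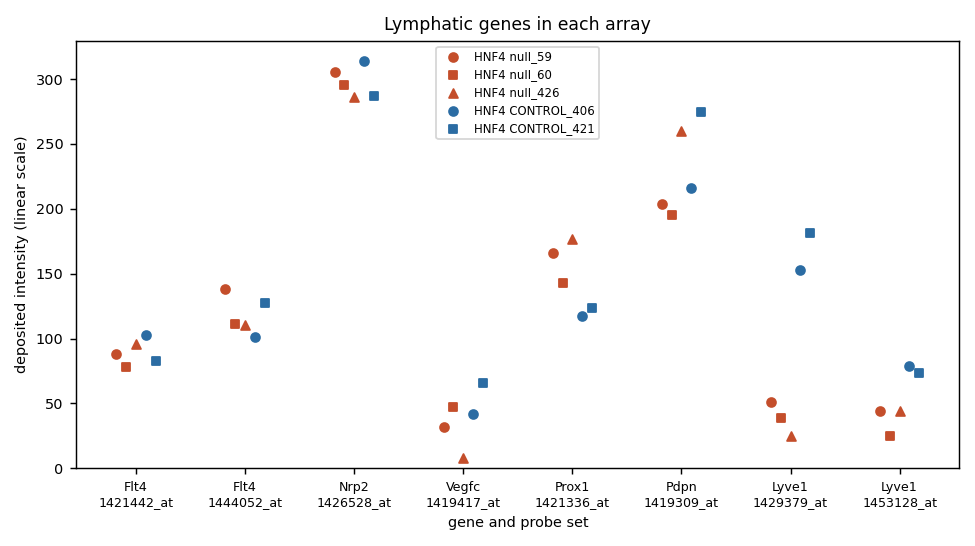
Deposited intensity on a linear scale (vertical axis) of lymphatic genes in each array (orange: HNF4 null; blue: control; horizontal axis: gene and probe set). Null and control arrays are apart for Lyve1 1429379_at, at 24.5 to 51.0 against 153 and 181, while for Flt4, Nrp2, Vegfc and Pdpn they overlap and for Prox1 the null arrays are above.

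The rest of the vascular pathways was read from 4 further lists, in which 0 genes passed in limma in either direction. By the brightest probe set, 0.137% of all genes passed, 53.5% lay above 0, and at an unadjusted p under 0.05 2.6% were higher and 4.24% lower (6.83% in all). Of 26 genes around VEGF and angiopoietin signalling, 15 lay above 0, with a median of 0.014. Vegfb, a ligand of Flt1 and the 1 gene of this list with an unadjusted p under 0.05, read 152, 121 and 103 in null and 153 and 197 in control colons and differed by -0.48 (limma adjusted p = 0.699), and null_59 was near CONTROL_406. Arnt, the partner of hypoxia-inducible factors, Ptprb, a phosphatase that restrains Tek, and Pdgfb, by which endothelium recruits pericytes, differed by 0.34, -0.37 and 0.26.

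Of 26 genes of Notch, ephrin and BMP signalling, 7 lay above and 19 below 0 (53.5% of all genes lay above), with a median of -0.079. At an unadjusted p under 0.05 there was 1 gene, where 6.83% of all genes had such a p. It was Smad6, an inhibitor of BMP signalling that is strong in endothelium. It read 94.0, 109.9 and 74.6 in null and 122 and 148 in control colons, with all null arrays below both controls and a difference of -0.53 ± 0.21 (SE; limma adjusted p = 0.656). Its relative Smad7, the Notch target Hes1 and the arterial connexin gene Gja5 differed by -0.31, -0.43 and -0.31. For Hes1, CONTROL_421 was the high array (409), and CONTROL_406 (233) lay inside the null range of 210 to 244. The 7 genes above 0 were Smad5 (0.29), Notch3 (0.21), Notch1 (0.21), Heyl (0.21), Jag1 (0.20), Hey2 (0.16) and Gja4 (0.031). Of 20 endothelial transcription factors outside the set, 11 lay below 0, with a median of -0.063. The lowest was Klf4, which gut epithelium also makes, at -0.65 (limma adjusted p = 0.653), again the 1 gene with such an unadjusted p, while Foxc2, Foxo1 and Lmo2 differed by -0.29, 0.29 and -0.30.

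Of 32 other endothelial markers, 16 lay above and 16 below 0, with a median of -0.0024, and 1 in each direction had an unadjusted p under 0.05. Slco2a1, the lower one, a prostaglandin transporter of endothelium and some epithelia, read 134, 122 and 103 in null and 251 and 223 in control colons. The groups were apart, but its difference of -0.94 ± 0.18 (SE, 95% interval -1.34 to -0.53) did not pass (limma adjusted p = 0.172, and 0.0931 to 0.529 over the alternatives). Mcam, the higher one, an adhesion molecule of endothelium, pericytes and smooth muscle, read 380.2, 298 and 287 in null and 269.9 and 86.5 in control. CONTROL_421 was the low array, the difference was 0.95 ± 0.34 (SE; limma adjusted p = 0.630), and it was 0.26 without that array and 1.63 without CONTROL_406 (limma adjusted p = 0.0331). Cav2, a caveolin, and Esm1, a proteoglycan of tip cells, differed by -0.51 and 0.45.

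Cells that surround or neighbour vessels were read the same way, and 0 genes of these lists passed in limma. Over 12 measured genes of mural cells, the pericytes and smooth muscle cells that wrap vessels, the median was 0.17. The Notch receptor gene Notch3 and the signalling regulator gene Rgs4 differed by 0.21 and 0.22, and the peptidase gene Anpep, also made by the epithelium, by -0.68. At an unadjusted p under 0.05, which 2.6% of all genes reached higher and 4.24% lower, 1 gene of this list was higher, Mcam again, and 1 was lower, Anpep. Over 14 genes of smooth muscle the median was 0.12, and 3 were higher and 1 lower at that p, against the same shares of all genes. The 4 with the smallest p were the contractile genes Tagln, Myh11 and Tpm1 (0.56, 0.57 and 0.53) and the calcium store gene Casq2 (-0.54). CONTROL_421 was the lowest array for Tagln, Myh11 and Tpm1. Of the rest, Acta2, Mylk, Actg2, Myl9 and Smtn differed by 0.028, -0.0009, 0.19, 0.57 and -0.34. Over 12 genes of fibroblasts the median was -0.022, and the matrix gene Postn (-0.71) was the 1 gene with such a p. Mfap4, Lum and Col3a1 differed by 0.36, 0.23 and -0.13. Over 6 genes of the mesothelium, the outer lining of the gut, the median was 0.18, and Wt1 (0.44) was the 1 gene with such a p. Msln, Efemp1 and Upk3b differed by 0.38, -0.22 and 0.20.

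Genes of the epithelium were mostly lower in value in null colons, none past the threshold. In a list of 16 measured genes of the colonic epithelium, 4 lay above and 12 below 0 (53.5% of all genes lay above), 0 passed, and 7 lower genes had an unadjusted p under 0.05, which 4.24% of all genes had. The median was -0.30. Phgr1, Krt20, the adhesion gene Epcam and the villin gene Vil1 differed by -1.34, -0.87, -0.66 and -0.74 (limma adjusted p from 0.0557 to 0.493). The 4 genes above 0 were Krt18 (0.29), Fcgbp (0.19), Krt19 (0.14) and Lgals4 (0.010), and Tff3 and Krt8 differed by -0.063 and -0.15. The summed intensity of this list was 23140 to 27156 in null and 28319 to 31201 in control colons, without overlap. Phgr1 (means of 909 in null and 2354 in control) and Epcam (1483 and 2454) held much of this gap. The sum of the 34 endothelial genes was 5369 to 5733 in null and 5346 to 5589 in control colons, with overlap. The part of the epithelial share in the endothelial values was not tested.

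**Figure D5:**
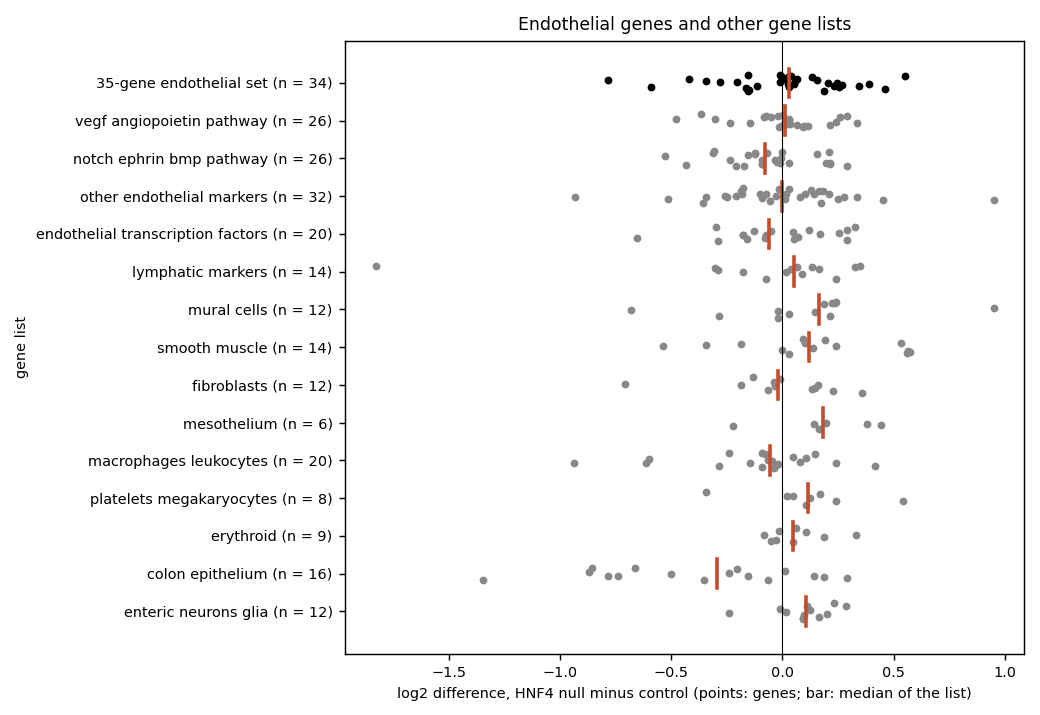
Log2 difference, HNF4 null minus control, of each gene by its brightest probe set (points) in the endothelial set and the other lists, with the median of each list (bar). The endothelial median is 0.030, that of the colonic epithelium -0.30, and Lyve1 is the point far to the left among the lymphatic genes.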

How the data were processed

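The authors deposited 1 table of linear-scale intensity values, a row per probe set and a column per array, from biotin-labelled total RNA (Qiagen RNeasy mini columns, Affymetrix procedure), per the labels' protocols. The software for summary, background and scaling was not given in the sources used here. The 64 control probe sets were left out, which left 22626. Names came from a platform annotation of 2016, in which 20380 probe sets had 1 symbol, 691 several and 1555 none, and 20351 matched RefSeq genes (GRCm38.p6) by gene ID, with 0 symbols changed.

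Values below 0 were set to 0 (none among the endothelial probe sets), taken as log2(intensity + 16) and quantile normalised. Folds on this scale understate changes of dim genes. HNF4 null (n = 3) and control (n = 2) arrays were compared with limma 3.58.1 in R 4.3.3 (two-sided, no covariate, 9.33 total degrees of freedom), with Benjamini-Hochberg adjustment across the 22626 probe sets. The scripts were tested on simulated data. P-values measure only the spread between these embryos. For counts per gene, the brightest probe set over all arrays stood for each of 12393 genes.

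All endothelial genes were named, and from each other list the 4 genes with the smallest p and any past the threshold. Further genes were named outside this rule from the lists of macrophages, smooth muscle, colonic epithelium and Notch, ephrin and BMP signalling. Members and lists were chosen with earlier results of these data known. Alternatives tried were no normalisation beyond that of the deposited table, centring on the median, a pseudocount of 1 or 64, leaving out probe sets with a mean under the median, limma's intensity trend (plain or robust), its array weights, averaging the probe sets of each gene, and leaving out each array.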

Additional observations from a re-analysis of the deposited data

How the results depend on the processing

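The count of endothelial probe sets past the threshold was 0 in all 13 alternatives, and the median of the 34 genes ranged from -0.0003 to 0.085 with an array left out and was 0.039 over the mean of each gene's probe sets, a setting that gave only this median. As deposited, 2 probe sets were higher at an unadjusted p under 0.05 and 11 had all null arrays above control. With a pseudocount of 1, 2 were lower, and 0 genes of the vascular lists fell. With dim probe sets taken out, 21 of the 49 were fitted, and 0 were higher, 3 had null above and 1 below control, and 0 list genes fell. Flt1 1419300_at and Lyve1 1429379_at were among those taken out, so these 0 counts do not come from a refit of them. With array weights 3 were higher and 2 lower. With an array left out, 0 to 2 were higher, 0 to 2 lower, 8 to 19 had null above and 3 to 13 below control (fewer arrays overlap less), and 0 or 1 list genes fell (Lyve1) and 0 or 1 rose (Mcam, without CONTROL_406). Without a control array, the lone control is assumed to vary like the null arrays.

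Of the 49 probe sets, 23 kept their direction in every alternative in which they were fitted. Signs turned as deposited for Cd34 (0.061), Nrp1 1418084_at (0.0050) and Dll4 1421826_at (0.034), with median centring for Cd34 (0.015), Sox7 (-0.0066), Ramp2 (-0.0076) and Egfl7 1451427_a_at (-0.040), with a pseudocount of 1 for Eng 1417271_a_at (0.0003) and with array weights for Sox7 (-0.0465), Nrp2 (0.027) and Notch4 1456263_at (-0.0016). With an array left out they turned in 26, with the ranges Cd34 1416072_at (-0.31 to 0.29), Eng 1417271_a_at (-0.24 to 0.24), Cldn5 1417839_at (-0.33 to 0.41), Nrp1 1418084_at (-0.16 to 0.045), Vegfa 1420909_at (-0.18 to 0.32), Fli1 1422024_at (-0.15 to 0.24), Fli1 1433512_at (-0.016 to 0.064), Flt4 1444052_at (-0.17 to 0.19), Sox7 1416564_at (-0.0085 to 0.093), Dll4 1421826_at (-0.14 to 0.068), Nrp2 1426528_at (-0.043 to 0.015), Cdh5 1433956_at (-0.13 to 0.24), Notch4 1449146_at (-0.040 to 0.14), Notch4 1456263_at (-0.047 to 0.17), Esam 1460356_at (-0.31 to 0.087), Egfl7 1421335_a_at (-0.14 to 0.66), Eng 1432176_a_at (-0.027 to 0.15), Nrp1 1448944_at (-0.27 to 0.0021), Egfl7 1451427_a_at (-0.014 to 0.065), Tie1 1416238_at (-0.064 to 0.53), Ramp2 1418187_at (-0.044 to 0.16), Pdpn 1419309_at (-0.33 to 0.034), Pecam1 1421287_a_at (-0.14 to 1.25), Dll4 1421827_at (-0.50 to 0.10), Erg 1425370_a_at (-0.71 to 0.022) and Sox18 1449135_at (-0.29 to 0.067). None of these values passed the threshold, and the cause was not tested.

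Signal limits what can be seen. The 3 probe sets of a bacterial control gene (trpn), of which the sources used here do not say whether it was added, read 27.1 to 155. Of the 49 endothelial probe sets, 32 had a mean within or below that range, among them all those of Pecam1, Flt1, Flt4, Prox1, Vegfc and Vwf. For Lyve1 1429379_at, the null values (24.5 to 51.0) and CONTROL_406 (153) also lay within or below it, and CONTROL_421 (181) lay above. No paired analysis was possible because the groups share no replicate number.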

Other observations

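Blood cells share some of the endothelial genes, and their own lists held 0 genes past limma's threshold. Among 8 measured genes of platelets and megakaryocytes, which also make Pecam1 and Vwf, 7 lay above 0, with a median of 0.11. Of all genes, 53.5% lay above 0 and 6.83% had an unadjusted p under 0.05 in limma. Gp1bb, a subunit of the platelet receptor for von Willebrand factor, read 259, 262 and 343 in null and 164 and 224 in control colons, a difference of 0.54 (limma adjusted p = 0.653), with the null arrays above both controls, and was the 1 gene of the list with an unadjusted p under 0.05. The chemokine gene Pf4 differed by -0.34, and the surface glycoprotein genes Gp5 and Gp9 by 0.24 and 0.17. Over 9 measured erythroid genes the median was 0.045 and 0 had such a p, and the embryonic globin gene Hbb-y read 375, 279 and 676 in null and 353 and 321 in control, with null_426 as the high array. The other embryonic globin genes Hbb-bh1 and Hba-x and the haem enzyme gene Alas2 differed by 0.18, -0.083 and 0.11.

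Genes of enteric neurons and glia had a median of 0.10 over 12 measured genes, 10 of them above 0 (53.5% of all genes lay above). None of them passed limma's threshold, and 0 had an unadjusted p under 0.05 (6.83% of all genes had). The endothelin receptor gene Ednrb read 179, 154 and 192 in null and 169.8 and 109 in control colons, where CONTROL_421 was the low array, and differed by 0.29. The neuronal genes Elavl4, Snap25 and Tubb3 differed by 0.23, -0.24 and 0.20.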
